A study of Mus musculus with 8 samples.

Results

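The MYC, MAX and MXD network was followed across spleen T cells with and without STAT3. Its members here are the 10 genes Myc, Max, Mxd1, Mxd3, Mxd4, Mxi1, Mnt, Mga, Mlx and Mlxip, taken by gene name from the 25078 gene rows of the deposited counts and RPKM tables. All 10 passed the filter on low counts and stand among the 12428 genes tested. The lowest count of any member in any library was 101 (Mxd3 in CD4 WT replicate 2).

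The proteins of this network bind DNA as pairs. MAX is the shared partner: with MYC it forms the pair that drives transcription of genes for growth, metabolism and ribosome production, and with the MXD proteins (MXD1, MXD3, MXD4 and MXI1), MNT or MGA it forms pairs that repress transcription, largely over the same DNA element, the E-box. MLX is a second shared partner that joins MLXIP, a sensor of glucose-derived metabolites, to the network. In T cells MYC is induced on activation and is required for the metabolic switch that precedes clonal expansion, while several MXD genes are known for their expression in cells that leave the cycle or differentiate.

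Donor T cells were sorted from the spleen 6 days after hematopoietic cell transplantation (HCT) as H-2Kb+ TCRβ+ CD4+ or CD8+ cells. The donors were C57BL/6 mice, either wild type (WT) or with Stat3 fl/fl and a Cre driven by Cd4 regulatory sequences (STAT3KO), and all recipients were irradiated BALB/c mice that also received T cell-depleted bone marrow from WT donors. The Cre acts before CD4 and CD8 T cells part in the thymus, so both carry the deletion, and the bone marrow of the graft keeps Stat3. The 8 libraries form 4 groups of 2 replicates (CD4 WT, CD4 STAT3KO, CD8 WT and CD8 STAT3KO), each replicate is a pool of several recipients, and p-values therefore measure the spread between these pools. The age of the mice is not given in the sources used here.

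The libraries held between 20171396 and 23282757 counts, and 3 counts in a library equal 0.126 to 0.150 CPM, the normalised read count used below (the count over the TMM-scaled library size). These limits take in the error of counting alone. Stat3 itself stood at 436 and 428 CPM in CD4 WT and 138 and 141 CPM in CD4 STAT3KO libraries, and at 431 and 436 CPM in CD8 WT and 120 and 143 CPM in CD8 STAT3KO libraries, as the labels say (log2 fold change -1.63 and -1.72, edgeR adjusted p 0.000753 and 0.00536). All 8 T cell markers were present in every library, between 206 and 1574 CPM per gene. Among B cell markers, Ms4a1 had at most 3 counts in any library, and Cd22 reached 167 CPM. The summed B cell markers were between 106 and 123 CPM in CD4 WT and between 149 and 171 CPM in CD4 STAT3KO libraries, and between 37.3 and 54.6 CPM in the CD8 libraries. Summed macrophage markers (6 genes) were higher in replicate 2 than in replicate 1 of every group, with 20.7 and 72.9 CPM in CD4 WT, 22.0 and 90.9 CPM in CD4 STAT3KO, 41.1 and 145 CPM in CD8 WT, and 53.9 and 123 CPM in CD8 STAT3KO libraries. Of 6 erythroid markers 4 were at 0 in all 8 libraries. Of 4 NK markers, Klra8 was at 0 and Ncr1 had at most 5 counts. Klrb1c stood between 13.9 and 26.2 CPM and Eomes between 2.34 and 69.0 CPM. The summed NK markers were between 19.8 and 20.0 CPM in CD4 WT and between 28.4 and 29.6 CPM in CD4 STAT3KO libraries. They were between 61.6 and 71.7 CPM in CD8 WT and between 61.1 and 88.5 CPM in CD8 STAT3KO libraries. In bulk RNA, fewer cells that carry a transcript and less of it per cell cannot be told apart.

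The relative abundance of the members was read from RPKM, which are scaled by exon length so that genes can be set side by side. The order therefore rests on the exon lengths of the deposited tables, 1179 bases for Mxd4 against 2351 for Max. GENCODE M21 has 8483 exon bases for Mxd4 and 3598 for Max, and the effect of other lengths was not tested. In WT CD4 T cells the order of the means was Max (75.8 RPKM), Myc (48.2), Mxd4 (45.6), Mlx (37.0), Mlxip (28.1), Mxd1 (24.3), Mnt (14.4), Mga (11.2), Mxi1 (5.19) and Mxd3 (4.01 RPKM). Max therefore stood above each single partner in the WT groups. The spread of Myc, from 27.4 to 68.9 RPKM between the replicates, covered the levels of Mxd4, Mlx and Mlxip, and the range of Mlxip lay within that of Mxd1 (19.1 to 29.5 RPKM). In STAT3KO CD4 T cells Mxd4 came first in RPKM with 77.2 ± 8.85 RPKM (SD, n = 2), above Max with 65.9 ± 2.68 RPKM (SD, n = 2). Without scaling by length, Mxd4 stood below Max, with means of 92.7 and 158 CPM. In RPKM they were followed by Mlx (38.6), Mlxip (29.2), Myc (28.4), Mxd1 (18.1), Mxd3 (11.9), Mnt (11.5), Mga (11.4) and Mxi1 (6.38 RPKM). The replicates of Myc (17.2 and 39.5 RPKM) enclosed Mlx, Mlxip and Mxd1, and the ranges of Mxd3, Mnt and Mga overlapped. In both CD8 groups Max was again first (60.5 RPKM in WT and 57.6 RPKM in STAT3KO). In WT CD8 T cells it was followed by Myc (44.4), Mlx (36.1), Mxd4 (27.9), Mlxip (22.6), Mxd3 (16.2), Mxd1 (15.8), Mnt (10.9), Mxi1 (8.23) and Mga (7.89 RPKM). There the range of Myc (31.1 to 57.7 RPKM) covered Mlx, that of Mxd1 (13.2 to 18.4 RPKM) covered Mxd3, and that of Mxi1 (6.80 to 9.66 RPKM) covered Mga. In STAT3KO CD8 T cells Max was followed by Mxd4 (41.7), Mlx (36.8), Myc (25.8), Mlxip (23.4), Mxd3 (19.7), Mxd1 (11.6), Mxi1 (9.89), Mnt (9.80) and Mga (9.44 RPKM), where the range of Myc (19.8 to 31.7 RPKM) covered Mlxip and reached that of Mxd3, and Mnt overlapped both Mxi1 and Mga. Mxd3 was the lowest of the 10 in CD4 WT and the sixth in both CD8 groups.

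**Figure D1:**
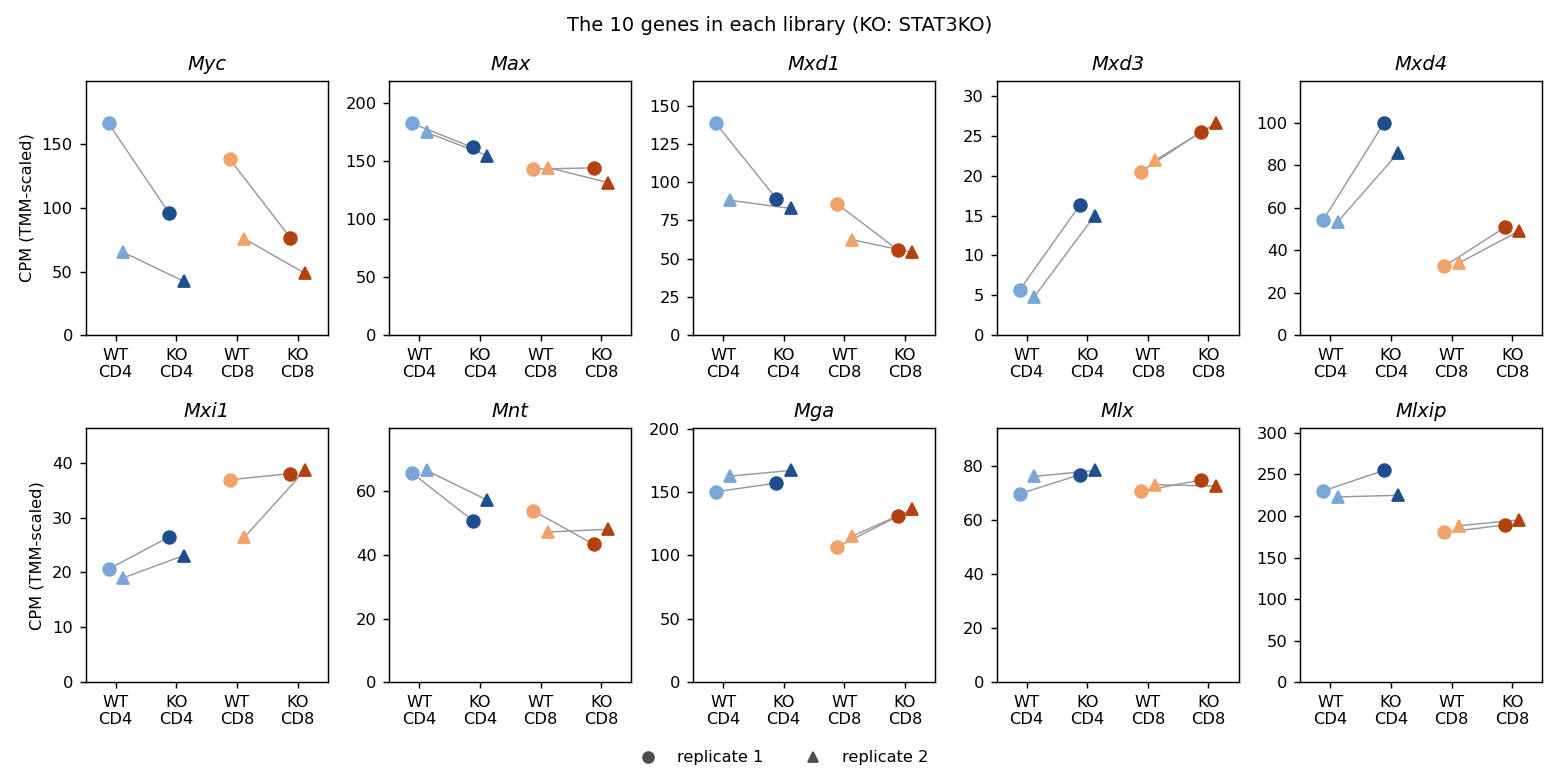
CPM (TMM-scaled, linear axes from 0) of each of the 10 genes in the 8 libraries, with circles for replicate 1, triangles for replicate 2, and lines joining WT and STAT3KO (KO) libraries of the same cell type and replicate number. Mxd3 and Mxd4 are higher in STAT3KO than in WT libraries along every line, Myc is lower along every line but differs by as much between replicates, and Max, Mnt and Mlx have lines in both directions.

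The first question was how the network differs in donor CD4 T cells that lack STAT3. Without regard to the replicate number, 2 of the MXD repressor genes, Mxd3 and Mxd4, rose in STAT3KO CD4 T cells. No member fell past the threshold in that fit. That is 2 of 10 members called higher and 0 lower (edgeR quasi-likelihood test, Benjamini-Hochberg adjusted p under 0.05 over all genes tested), where 6.54% of all genes were called higher and 5.08% lower. DESeq2 likewise gave 2 higher and 0 lower, and 3 members had an unadjusted edgeR p under 0.05, Mnt being the third. Of all 12428 genes, DESeq2 called 1011 higher and 836 lower, and 3415 had an unadjusted edgeR p under 0.05. The median log2 fold change of the 10 members was 0.066 and that of all genes 0.017. The groups did not overlap for 6 members, 4 higher (Mxd3, Mxd4, Mxi1, Mlx) and 2 lower (Max, Mnt) in STAT3KO. Among all genes 28.5% were higher and 25.0% lower without overlap. With the replicate number as a block, a fit given below, Myc was called lower as well (adjusted p 0.00369 by edgeR).

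Mxd3 encodes the member of the MXD family known for its expression in cycling cells. It had 5.64 and 4.77 CPM in the CD4 WT libraries and 16.4 and 15.0 CPM in the CD4 STAT3KO libraries. Both STAT3KO libraries were thus above both WT libraries by a wide margin, though at a low level (from 101 to 328 counts). The log2 fold change was 1.59 (SE 0.14, 3.01-fold, adjusted p 0.00114 by edgeR), with 1.52 and 1.63 within replicate numbers 1 and 2. Mxd4, whose product is known from differentiated and resting cells, had 54.2 and 53.3 CPM in CD4 WT and 99.6 and 85.8 CPM in CD4 STAT3KO libraries. The groups were again apart, with near-equal WT libraries. Its log2 fold change was 0.79 (SE 0.11, 1.72-fold, adjusted p 0.00472 by edgeR), and 0.88 and 0.69 within the replicate numbers. Both calls stood in every alternative analysis and without any single library (adjusted p at most 0.0468 for Mxd4 and 0.0146 for Mxd3). The summed B cell and NK markers also differed between these groups (NK between 19.8 and 20.0 CPM in CD4 WT and between 28.4 and 29.6 CPM in CD4 STAT3KO libraries), and their part in the values of Mxd3 and Mxd4 was not tested.

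The other MXD genes did not pass the threshold. Mxd1, the founding repressor of the family, had 139 and 88.2 CPM in CD4 WT and 89.3 and 82.9 CPM in CD4 STAT3KO libraries, so that one WT library was high and the other stood among the STAT3KO values (log2 fold change -0.40, SE 0.22, adjusted p 0.301 by edgeR). Mxi1, a repressor that antagonises MYC like MXD1, had 20.6 and 19.0 CPM in CD4 WT and 26.5 and 23.1 CPM in CD4 STAT3KO libraries (log2 fold change 0.32, SE 0.17, adjusted p 0.268 by edgeR). Those groups did not overlap.

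Among the remaining partners in CD4 T cells, Max had 182 and 174 CPM in WT and 161 and 154 CPM in the STAT3KO libraries, with a gap between the groups (log2 fold change -0.18, SE 0.094, adjusted p 0.283 by edgeR). Mnt, a MAX-bound repressor expressed in most cells, had 65.7 and 66.5 CPM in WT and 50.8 and 57.2 CPM in the STAT3KO pair (log2 fold change -0.29, SE 0.12, adjusted p 0.158 by edgeR). Both were lower in the 2 STAT3KO libraries without passing the test. Mga, a very large MAX partner that belongs to a variant polycomb complex, Mlx and Mlxip had log2 fold changes of 0.050, 0.089 and 0.082, each within 1 SE of 0. Mga had 150.3 and 163 CPM in the WT and 157 and 167 CPM in the STAT3KO pair. Mlx had 69.8 and 76.3 against 76.9 and 78.5 CPM, and Mlxip 230.1 and 223 against 255 and 225 CPM. The Mga and Mlxip values interleaved, and those of Mlx were apart by under 1 CPM.

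Among CD8 T cells, STAT3KO against WT without regard to the replicate number gave 1 member called higher, Mxd4, and 0 called lower. Among all genes 1.34% were called higher and 0.732% lower. With the replicate number as a block, a fit given below, Myc was called lower and Mga higher as well. Mxd4 had 32.4 and 33.9 CPM in CD8 WT and 50.7 and 49.1 CPM in CD8 STAT3KO libraries, again with the groups far apart and the replicates close. The log2 fold change was 0.59 (SE 0.11, 1.51-fold, adjusted p 0.0429 by edgeR), with 0.65 and 0.53 within the replicate numbers. Without the block the call is a marginal one. It was lost when any 1 of the 8 libraries was left out, at a log2 fold change between 0.55 and 0.62. It was also lost with column totals as scaling (adjusted p 0.0553 by edgeR) and in the 4 CD8 libraries alone (0.0862). With the block the log2 fold change of Mxd4 was 0.59 (SE 0.093, adjusted p 0.00291 by edgeR), where 18.2% of all genes were called. Mxd3, which had 20.5 and 21.9 CPM in CD8 WT and 25.5 and 26.6 CPM in CD8 STAT3KO libraries, stood higher in both STAT3KO libraries without passing the test (log2 fold change 0.30, SE 0.13, adjusted p 0.259 by edgeR). DESeq2 gave the same counts of 1 higher and 0 lower, and 2 members (Mxd4 and Mga) had an unadjusted edgeR p under 0.05. Of all 12428 genes, DESeq2 called 567 higher and 318 lower, and 2400 had an unadjusted edgeR p under 0.05. The median log2 fold change of the 10 members was 0.049 and that of all genes -0.0071.

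Groups did not overlap in CD8 T cells for 5 members that were higher (Mxd3, Mxd4, Mxi1, Mga, Mlxip) and for 1 that was lower (Mxd1), where 24.9% of all genes were higher and 24.8% lower without overlap. Mga had 107 and 115 CPM in CD8 WT and 131 and 136 CPM in CD8 STAT3KO libraries (log2 fold change 0.27, SE 0.097, adjusted p 0.185 by edgeR). Mxd1 had 85.9 and 62.5 CPM in CD8 WT and 55.8 and 54.1 CPM in CD8 STAT3KO libraries (log2 fold change -0.43, SE 0.22, adjusted p 0.346 by edgeR). Mxi1 had 36.9 and 26.4 CPM in CD8 WT and 38.0 and 38.6 CPM in CD8 STAT3KO libraries, where the first WT library was close to the STAT3KO values. Max, Mnt, Mlx and Mlxip had log2 fold changes of -0.061, -0.15, 0.036 and 0.063 in CD8 T cells, of which that of Mnt alone exceeded 1 SE. Max had 143 and 144 CPM in WT against 144 and 131 CPM in STAT3KO, and Mnt 53.8 and 47.2 against 43.3 and 48.0 CPM. Mlx had 70.8 and 73.2 against 74.9 and 72.7 CPM, and Mlxip 180.1 and 188 against 189 and 195 CPM. Of these, only the groups of Mlxip did not overlap.

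Myc, the activator of the network, showed another pattern. It had 167 and 65.3 CPM in CD4 WT, 96.0 and 42.4 CPM in CD4 STAT3KO, 139 and 75.8 CPM in CD8 WT, and 76.7 and 48.7 CPM in CD8 STAT3KO libraries (replicates 1 and 2). Replicate 1 was higher than replicate 2 in all 4 groups, by 1.35, 1.18, 0.87 and 0.65 on the log2 scale, so that the WT and STAT3KO libraries overlapped in both cell types. Without regard to the replicate number, Myc was not called (log2 fold change -0.75, SE 0.54, adjusted p 0.427 by edgeR in CD4; -0.77, SE 0.54, adjusted p 0.499 by edgeR in CD8). Without CD4 WT replicate 1, the CD4 log2 fold change turned to 0.057. Within replicate numbers the STAT3KO library was lower in each case, with log2 ratios of -0.79 and -0.62 in CD4 and of -0.85 and -0.64 in CD8. A fit with the replicate number as a block gave -0.72 (SE 0.14, adjusted p 0.00369 by edgeR) in CD4 and -0.74 (SE 0.14, adjusted p 0.00655 by edgeR) in CD8 T cells. The macrophage markers given above moved against Myc between the replicate numbers, and their part in that gap was not tested.

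The block raised the number of calls among all genes too. With it, 3 members were called in CD4 T cells (Mxd3 and Mxd4 higher, Myc lower), where 30.1% of all genes were called, and 3 in CD8 T cells (Mxd4 and Mga higher, Myc lower), where 18.2% of all genes were called. For Mga in CD8 T cells the blocked log2 fold change was 0.27 (SE 0.071, adjusted p 0.0276 by edgeR). Over the 4 pairs of libraries with the same cell type and replicate number, the STAT3KO library was higher in 4 of 4 for 5 members (Mxd3, Mxd4, Mxi1, Mga, Mlxip) and lower in 4 of 4 for 2 members (Myc, Mxd1). Among all genes 25.0% were higher and 23.7% lower in 4 of 4. The remaining 3 members, Max, Mnt and Mlx, went both ways.

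**Figure D2:**
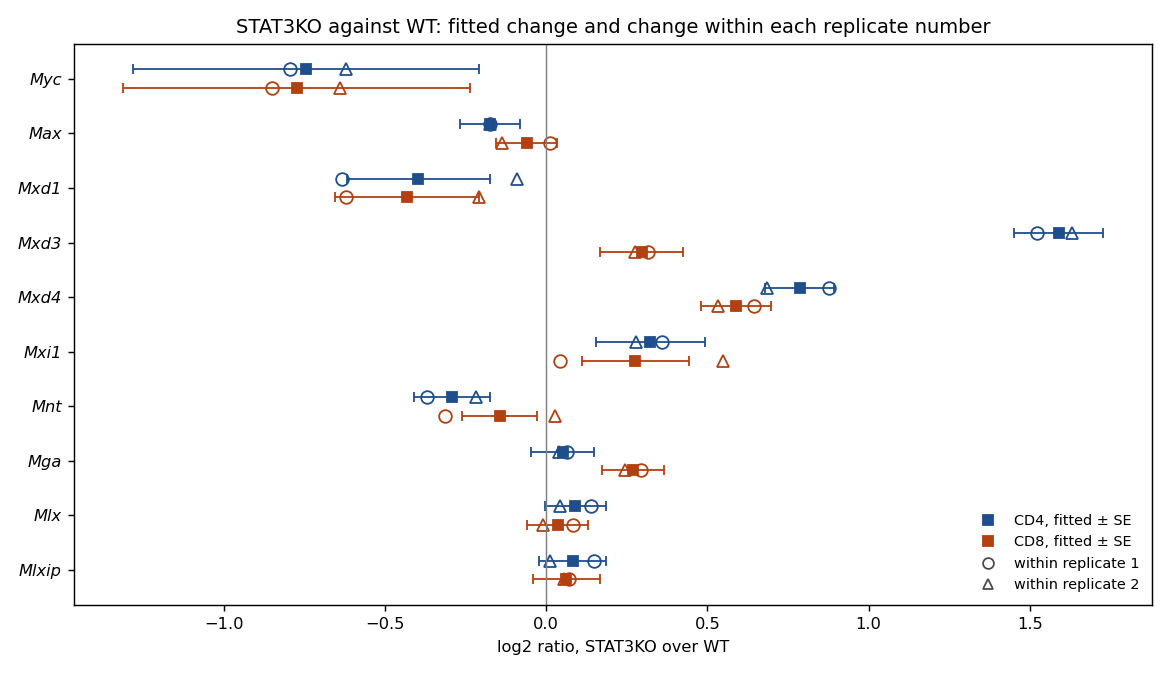
Log2 ratio of STAT3KO over WT for each of the 10 genes in CD4 (blue) and CD8 (orange) T cells, with squares and bars for the fitted log2 fold change ± SE and open circles and triangles for the ratios within replicate numbers 1 and 2. The wide bars of Myc (SE 0.54) contrast with its close pair of ratios within replicate numbers (-0.79 and -0.62 in CD4), and Mxd3 is the gene where CD4 and CD8 T cells lie farthest apart.

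The difference of the STAT3KO effects asks whether STAT3 loss moved the network differently in CD8 and CD4 T cells. No gene was called in this comparison by the edgeR test (0% of all genes, with 982 genes at an unadjusted p under 0.05, the smallest adjusted p being 0.0916), while DESeq2 called 69 genes upward and 119 downward. Mxd3 had the largest difference of the 10 members. Its log2 fold change was 1.29 smaller in CD8 than in CD4 T cells (interaction -1.29, SE 0.19, adjusted p 0.118 by edgeR), with -1.21 and -1.36 within replicate numbers. It was called by DESeq2 (adjusted p 0.000497), by edgeR without the filter on low counts (0.0441) and with the replicate block (-1.29, SE 0.18, adjusted p 0.00632 by edgeR), where 3.24% of all genes were called. For Mxd4 the interaction was -0.20 (SE 0.15, adjusted p 0.920 by edgeR), and for Myc it was -0.029 (SE 0.76, adjusted p 0.999 by edgeR). For the other 7 members it lay between -0.054 and 0.22, each within 2 SE of 0, so that a difference of this size was not detectable with these libraries.

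The counts of Mxd3 and Mxd4 carry a limit of annotation. On mm10, the deposited tables place Mxd3 on chromosome 13 (55325170 to 55329731, minus strand) and Mxd4 on chromosome 5 (34176580 to 34187710, minus strand), and both are protein coding in GENCODE M21. Of 2369 exon bases of Mxd3, 105 (4.43%) also lie in exons of Prelid1 on the other strand. Of 8483 exon bases of Mxd4, 514 (6.06%) lie in exons of the antisense gene Gm42846. All shares of exon bases in this report are over GENCODE M21 exons. The deposited tables give 1298 exon bases for Mxd3 and 1179 for Mxd4, so the share of the counted bases is not known. Whether strand was used in counting is not given in the sources used here, so reads from shared bases cannot be assigned with certainty. Prelid1 had 125 and 129 CPM in CD4 WT and 119 and 124 CPM in CD4 STAT3KO libraries, and so did not rise with Mxd3 (log2 fold change -0.056, SE 0.088, adjusted p 0.738 by edgeR). Mlx shares 19.3% of its exon bases with Psmc3ip, which had 2.84 and 3.07 CPM in CD4 WT and 5.65 and 6.08 CPM in CD4 STAT3KO libraries and was called higher there (log2 fold change 0.99, SE 0.19, adjusted p 0.0180 by edgeR). Its part in the values of Mlx, whose CD4 groups were apart by under 1 CPM, was not tested. Mlxip shares 3.21% with Gm15747 and Mxi1 2.84% with Gm10197, again on the other strand, while Myc, Max, Mxd1, Mnt and Mga share none.

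The sequence before the start of the 2 genes that rose is shown because it is what a reader would search for binding elements of the network or of STAT3. RefSeq promoters on GRCm38.p6 (the mm10 assembly) were matched by symbol for 9 of the 10 members. Each spans 250 bases before and 50 bases after the start. Myc has no entry. The motifs searched on both strands were the E-box CACGTG, the STAT element TTCNNNGAA, and the E2F element as TTTCCCGC or TTTGGCGC. The 250 bases before the start are printed 5′ to 3′ on the strand of the gene (minus for both), chr5:34187711-34187960 for Mxd4 and chr13:55329732-55329981 for Mxd3, with any match in capitals.
Mxd4: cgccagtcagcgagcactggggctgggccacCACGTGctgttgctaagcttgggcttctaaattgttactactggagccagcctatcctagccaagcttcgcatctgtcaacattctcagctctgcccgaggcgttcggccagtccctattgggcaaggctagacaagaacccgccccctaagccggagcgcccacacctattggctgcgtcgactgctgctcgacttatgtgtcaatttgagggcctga
Mxd3: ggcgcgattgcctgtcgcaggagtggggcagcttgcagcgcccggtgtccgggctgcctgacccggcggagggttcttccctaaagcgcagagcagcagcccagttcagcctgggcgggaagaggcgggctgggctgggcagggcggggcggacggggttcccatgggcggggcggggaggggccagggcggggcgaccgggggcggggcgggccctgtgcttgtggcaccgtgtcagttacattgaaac
The promoter of Mxd4 holds 1 E-box that begins 219 bases before the start, and that of Mxd3 holds none of these motifs. CACGTG occurs in 4 of 11 member promoters (Mxi1 has 3 entries), where 7.15% of the 32851 promoters of the table hold it. The 30 bases around it are given for these 4 genes, so that the flanks can be compared, at chr5:34187912-34187941 (minus), chr11:74830789-74830818 (plus), chr11:101087238-101087267 (plus) and chr12:76962234-76962263 (minus).
Mxd4: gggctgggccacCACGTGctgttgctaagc
Mnt: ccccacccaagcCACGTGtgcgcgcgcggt
Mlx: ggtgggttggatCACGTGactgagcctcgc
Max: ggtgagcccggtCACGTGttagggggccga
The capitals mark the E-box, which begins 219, 123, 40 and 3 bases before the start of Mxd4, Mnt, Mlx and Max. The STAT element occurs in 8.30% and the E2F element in 1.56% of all promoters, and neither was found in the 11 member promoters. A match is a stretch of letters and not a measured site.

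The balance between the MXD genes and Myc was described per library by the sum of RPKM of Mxd1, Mxd3, Mxd4 and Mxi1 over the RPKM of Myc. This ratio rests on the exon lengths of the deposited tables, as do the shares of the MXD sum given next. The ratio was 1.23 and 2.68 in CD4 WT, 3.08 and 6.12 in CD4 STAT3KO, 1.24 and 2.09 in CD8 WT, and 2.65 and 4.13 in CD8 STAT3KO libraries (replicates 1 and 2). The STAT3KO libraries were above the WT libraries of the same cell type in each case. Within replicate numbers, the ratio was 2.50 and 2.29 times the WT value in CD4, and 2.14 and 1.98 times in CD8 T cells. No test is given for this ratio, since it joins genes whose values had been seen.

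The makeup of the MXD sum differed between the groups. The sum went from 79.1 ± 8.04 RPKM (SD, n = 2) in CD4 WT to 114 ± 11.5 RPKM (SD, n = 2) in CD4 STAT3KO, and from 71.3 and 64.9 RPKM to 84.0 and 81.8 RPKM in CD8 T cells. Mxd4 made up 53.8% and 62.1% of it in CD4 WT and 68.6% and 67.3% in CD4 STAT3KO libraries, against 38.5% and 43.6% in CD8 WT and 50.8% and 49.7% in CD8 STAT3KO libraries. Mxd3 made up 5.08% and 5.05% in CD4 WT and 10.2% and 10.7% in CD4 STAT3KO libraries, and between 22.1% and 25.6% in CD8 libraries of both genotypes. Mxd1 went from a share of 34.8% and 26.0% in CD4 WT to 15.6% and 16.4% in CD4 STAT3KO libraries, and stood at 25.8% and 20.3% in CD8 WT and at 14.2% and 13.8% in CD8 STAT3KO libraries.

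**Figure D3:**
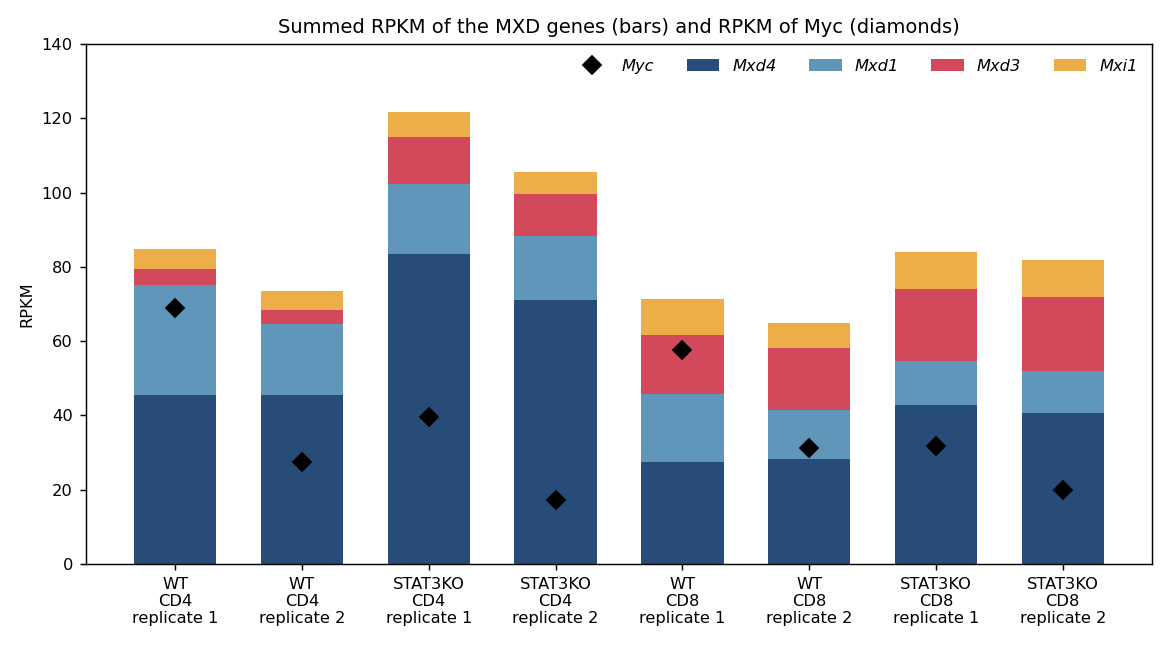
RPKM per library, with stacked bars for Mxd4, Mxd1, Mxd3 and Mxi1 and diamonds for Myc. The bars are tallest in the CD4 STAT3KO libraries (122 and 105 RPKM), and the diamonds are lower in replicate 2 of each group than in replicate 1.

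Between the cell types, 6 members were called in WT and 3 in STAT3KO T cells; these comparisons use the same libraries as those of the genotypes. In WT T cells Mxd3 and Mxi1 were higher in CD8, and Max, Mxd4, Mnt and Mga were lower. That is 2 members called higher and 4 lower, where 12.2% of all genes were called higher and 11.6% lower. Mxd3 had 4.07 times the level of CD4 in CD8 T cells (log2 fold change 2.03, SE 0.14, adjusted p 0.000143 by edgeR), the widest difference of any member, and Mxi1 had 1.60 times (log2 fold change 0.67, SE 0.17, adjusted p 0.0245 by edgeR). Mxd4 went the other way, with a log2 fold change of -0.70 (SE 0.11, adjusted p 0.00323 by edgeR), as did Mga (-0.50, SE 0.097, adjusted p 0.00869 by edgeR). Max (-0.31, SE 0.094, adjusted p 0.0480 by edgeR) and Mnt (-0.39, SE 0.12, adjusted p 0.0485 by edgeR) were just past the threshold. Leaving out any 1 of the 8 libraries ended the calls of Max (adjusted p 0.0553 to 0.174) and Mnt (0.0609 to 0.212). The call of Mga was lost without CD8 WT replicate 1 (0.0670), and that of Mxi1 without either CD4 WT replicate, without CD8 WT replicate 1 and without CD8 STAT3KO replicate 1 (at most 0.154).

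In STAT3KO T cells Mxd3 (log2 fold change 0.73, SE 0.13, adjusted p 0.0114 by edgeR) and Mxi1 (0.63, SE 0.17, adjusted p 0.0484 by edgeR) were higher and Mxd4 (-0.89, SE 0.11, adjusted p 0.00270 by edgeR) was lower in CD8 than in CD4 T cells, where 5.84% of all genes were called higher and 6.67% lower. The calls of Mxd3 and Mxi1 were lost without either replicate of CD4 STAT3KO or of CD8 STAT3KO (adjusted p between 0.0628 and 0.0942 for Mxd3, and between 0.142 and 0.245 for Mxi1), and that of Mxi1 also without either CD4 WT replicate (0.0627 or more). Mxd4 kept its call without any single library in both genotypes. With the replicate block, 8 members were called in WT, where 42.1% of all genes were called, and 6 in STAT3KO T cells, where 29.7% were called. Those added by the block were lower in CD8: Mxd1 and Mlxip in both genotypes (edgeR adjusted p 0.00446 and 0.0154 in WT, 0.00515 and 0.0163 in STAT3KO) and Mga in STAT3KO (edgeR adjusted p 0.0146). Myc did not differ past the threshold between CD8 and CD4 T cells in either genotype (-0.11, SE 0.53, and -0.14, SE 0.54), and neither did Mlx (-0.021, SE 0.094, and -0.074, SE 0.094). DESeq2 also called Mxd1 (adjusted p 0.0322 in WT and 0.0354 in STAT3KO) and Mlxip (0.0362 and 0.0404). Mxd1 was called by edgeR in WT without CD4 WT replicate 2 (0.0186) and in STAT3KO without either CD4 WT library (0.0406 and 0.0409). The difference of Mxd3 between the cell types in the 2 genotypes is the interaction given above.

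**Figure D4:**
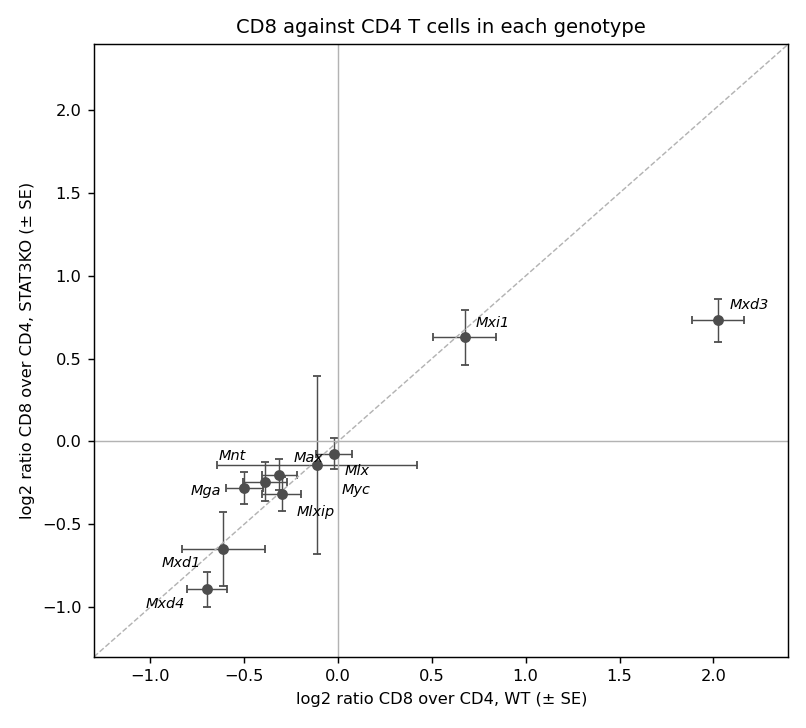
Log2 ratio of CD8 over CD4 T cells in WT (horizontal) and STAT3KO (vertical), one point per gene with bars of 1 SE and a dashed line where both are equal. Most of the 10 genes lie near the line and Mxd3 lies below it (2.03 in WT and 0.73 in STAT3KO).

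Further genes of the family were scarce. Mycn, a paralog of Myc known from development, had 2 and 0 counts in CD4 WT, 9 and 6 in CD4 STAT3KO, 31 and 10 in CD8 WT, and 51 and 54 in CD8 STAT3KO libraries. It was called higher in CD8 than in CD4 T cells in both genotypes (edgeR adjusted p 0.0214 in WT and 0.0449 in STAT3KO), and neither STAT3KO comparison called it without the block (edgeR adjusted p 0.143 in CD4 and 0.269 in CD8). With the replicate block it was called higher in CD8 (edgeR adjusted p 0.0304) and not in CD4 (0.0641). No fold is given against CD4 WT, whose libraries were under 3 counts. Mycl had between 2 and 20 counts, and was called higher in CD8 than in CD4 STAT3KO T cells (edgeR adjusted p 0.0389), and Mlxipl, the liver-type relative of Mlxip, had between 1 and 7 counts and was not tested.

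Of 31 genes known to be activated by MYC, 8 fell and 1 rose in STAT3KO CD4 T cells. Among all genes 5.08% were called lower and 6.54% higher there. Of the 31, 26 had a log2 fold change below 0, and the median of the 31 was -0.30, against 0.017 for all genes. In CD8 T cells edgeR called 0 of the 31 lower and 1 higher, although 16 had an unadjusted p under 0.05 and DESeq2 called 8 lower and 1 higher. Of all 12428 genes, edgeR called 0.732% lower and 1.34% higher in CD8 T cells, and 2400 had an unadjusted p under 0.05. DESeq2 called 318 of all genes lower and 567 higher. Of the 31, 23 were below 0 in CD8 T cells, and their median as a list was -0.27, against -0.0071 for all genes. The replicate block gave 17 lower and 1 higher for CD4 and 15 lower and 3 higher for CD8, to be read against the 30.1% and 18.2% of all genes called in that fit. The list was written with earlier results of these data known, so its direction is not independent evidence.

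Ccnd2, which encodes the cell cycle entry factor cyclin D2, was the activated gene that rose. It had 189 and 138 CPM in CD4 WT, 308 and 292 CPM in CD4 STAT3KO, 92.1 and 93.8 CPM in CD8 WT, and 174 and 154 CPM in CD8 STAT3KO libraries. The groups were apart in both cell types (log2 fold change 0.88, SE 0.15, adjusted p 0.0117 by edgeR in CD4; 0.82, SE 0.15, adjusted p 0.0452 by edgeR in CD8). Among those that fell in CD4 T cells, Rcl1, a factor of ribosomal RNA processing, went from 43.9 and 63.9 CPM to 24.4 and 28.6 CPM (log2 fold change -1.03, SE 0.21, adjusted p 0.0193 by edgeR). Mybbp1a, a nucleolar MYB-binding protein, went from 205 and 203 CPM to 125 CPM in both STAT3KO libraries (log2 fold change -0.70, SE 0.14, adjusted p 0.0193 by edgeR). Wdr12, which acts in ribosome assembly, went from 74.7 and 101 CPM to 52.7 and 56.5 CPM, a log2 fold change of -0.68 (SE 0.15, adjusted p 0.0282 by edgeR).

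The glycolytic enzymes Ldha (from 550 and 603 to 378 and 407 CPM, log2 fold change -0.55, SE 0.10, adjusted p 0.0147 by edgeR) and Pkm (from 603 and 597 to 444 and 422 CPM, -0.47, SE 0.11, adjusted p 0.0367 by edgeR) fell in CD4 T cells as well. In CD8 T cells Ldha went from 672 and 640 to 468 and 448 CPM and missed the threshold without the replicate block (-0.52, SE 0.10, adjusted p 0.0523 by edgeR). With the block it was called lower (-0.52, SE 0.084, adjusted p 0.00329 by edgeR), where 18.2% of all genes were called. Each of the calls made without the block was lost when some single libraries were left out. For Ccnd2 in CD4 T cells these were the CD4 STAT3KO libraries (adjusted p 0.0818 and 0.0595), and for Ccnd2 in CD8 the CD4 STAT3KO and all CD8 libraries (at most 0.250). For Rcl1, Wdr12 and Ldha they were CD4 WT replicate 2 and both CD4 STAT3KO libraries (at most 0.123, 0.151 and 0.106), for Mybbp1a any of the 4 CD4 libraries (at most 0.109), and for Pkm these and both CD8 WT libraries (at most 0.205). Pkm shares 15.3% of its exon bases with Gm49759 on the same strand, Ccnd2 7.87% with antisense genes, and Rcl1 and Ldha none.

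Of 6 genes known to be repressed by MYC, edgeR and DESeq2 each called 0 in CD4 T cells (0 at an unadjusted p under 0.05) and 1 in CD8 T cells. In the edgeR test this was Ndrg1, a gene of growth arrest and hypoxia, which was lower in STAT3KO: 113 and 106 CPM in CD8 WT against 58.3 and 60.8 CPM in CD8 STAT3KO libraries (log2 fold change -0.88, SE 0.13, adjusted p 0.0256 by edgeR, with 8.43% of exon bases shared with antisense genes). Leaving out any 1 of the 4 CD8 libraries ended this call (adjusted p 0.0869 to 0.142). Of 5 genes known as targets of MLXIP with MLX, Ldha was the one called in CD4 T cells and 0 were called in CD8 (3 at an unadjusted p under 0.05, 2 called lower by DESeq2), with medians of -0.30 and -0.52. Ldha and Hk2 are also among the MYC-activated genes above, so the lists are not separate. The medians are the values of single genes, Arrdc4 (SE 0.70) in CD4 and Ldha in CD8 T cells. With the block, 2 of these 5 were called lower in CD4 T cells and 4 in CD8, and of the 6 repressed genes 0 in CD4 and 1 in each direction in CD8. Among all genes edgeR called 6.54% higher and 5.08% lower in CD4, and 1.34% and 0.732% in CD8 T cells. The block called 30.1% and 18.2% of all genes. Of all 12428 genes, DESeq2 called 1011 higher and 836 lower in CD4, and 567 and 318 in CD8. An unadjusted edgeR p under 0.05 was found for 3415 genes in CD4 and 2400 in CD8.

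The next lists hold partners through which the network acts on chromatin, and their counts stand beside 6.54% of all genes called higher and 5.08% lower in CD4, and 1.34% and 0.732% in CD8 T cells (30.1% and 18.2% in either direction with the block). Of 15 cofactors of MYC, 0 were called by edgeR or DESeq2 in either STAT3KO comparison (0 in CD4 and 1 in CD8 at an unadjusted edgeR p under 0.05), with a median of -0.020 (CD4) and one of -0.075 (CD8). The block called 2 and 3 of them lower. Of 19 genes of the SIN3 corepressor, which MXD and MNT proteins recruit, Brms1l and Sap18 rose and Ing2 fell in CD4 T cells, with 0 called in CD8 by edgeR or DESeq2 (2 at an unadjusted edgeR p under 0.05), and the medians were 0.063 and 0.055. Brms1l went from 11.3 and 10.1 CPM to 21.7 and 16.7 CPM (log2 fold change 0.84, SE 0.18, adjusted p 0.0229 by edgeR), Sap18 had a log2 fold change of 0.65 (SE 0.15, adjusted p 0.0320 by edgeR) and Ing2 one of -0.46 (SE 0.11, adjusted p 0.0403 by edgeR). The call of Brms1l was lost without either CD4 WT library or CD4 STAT3KO replicate 1 (adjusted p at most 0.163), and that of Sap18 in 6 of 8 fits with a library left out (at most 0.168), all but those without CD4 WT replicate 1 and CD8 WT replicate 2. For Ing2 it was lost in 8 of 8 (0.0514 to 0.204). With the block, 3 genes of SIN3 were called higher and 2 lower in CD4, and 2 higher and 1 lower in CD8 T cells. Of 9 partners of MGA in the variant polycomb complex, 0 were called in CD4 by edgeR or DESeq2 (1 at an unadjusted edgeR p under 0.05), and Rnf2, its ubiquitin ligase, rose in CD8 T cells from 96.7 and 87.9 CPM to 135 and 152 CPM (log2 fold change 0.64, SE 0.11, adjusted p 0.0316 by edgeR, lost without any of the 4 CD8 libraries or either CD4 STAT3KO library, with an adjusted p of at most 0.246). With the block, 1 of the 9 was called lower in CD4 and 2 higher in CD8 T cells.

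Of 16 genes that set the stability of the MYC protein, Cip2a and Usp37 rose and Usp36 fell in CD4 T cells, and Cip2a rose in CD8, beside the same shares of all genes (6.54% higher and 5.08% lower in CD4, 1.34% and 0.732% in CD8). Cip2a, an inhibitor of a phosphatase that acts on MYC, had 32.9 and 29.3 CPM in CD4 WT, 81.9 and 82.8 CPM in CD4 STAT3KO, 97.7 and 73.7 CPM in CD8 WT, and 155 and 182 CPM in CD8 STAT3KO libraries. It was higher in STAT3KO in both cell types without overlap (log2 fold change 1.40, SE 0.16, adjusted p 0.00241 by edgeR in CD4; 0.98, SE 0.15, adjusted p 0.0283 by edgeR in CD8). The CD4 call stood without any single library, and the CD8 call was lost without either STAT3KO library of CD4 or CD8 and without CD8 WT replicate 2 (adjusted p at most 0.168). The deubiquitinases Usp36 and Usp37 had log2 fold changes of -0.53 (SE 0.11, adjusted p 0.0208 by edgeR, lost without CD4 WT replicate 1 or either CD4 STAT3KO library, at most 0.150) and 0.42 (SE 0.10, adjusted p 0.0366 by edgeR, lost without any 1 library, 0.0693 to 0.249) in CD4 T cells. The block called 4 of the 16 higher and 2 lower in CD4, and 2 higher and 3 lower in CD8 T cells, where it called 30.1% and 18.2% of all genes.

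**Figure D5:**
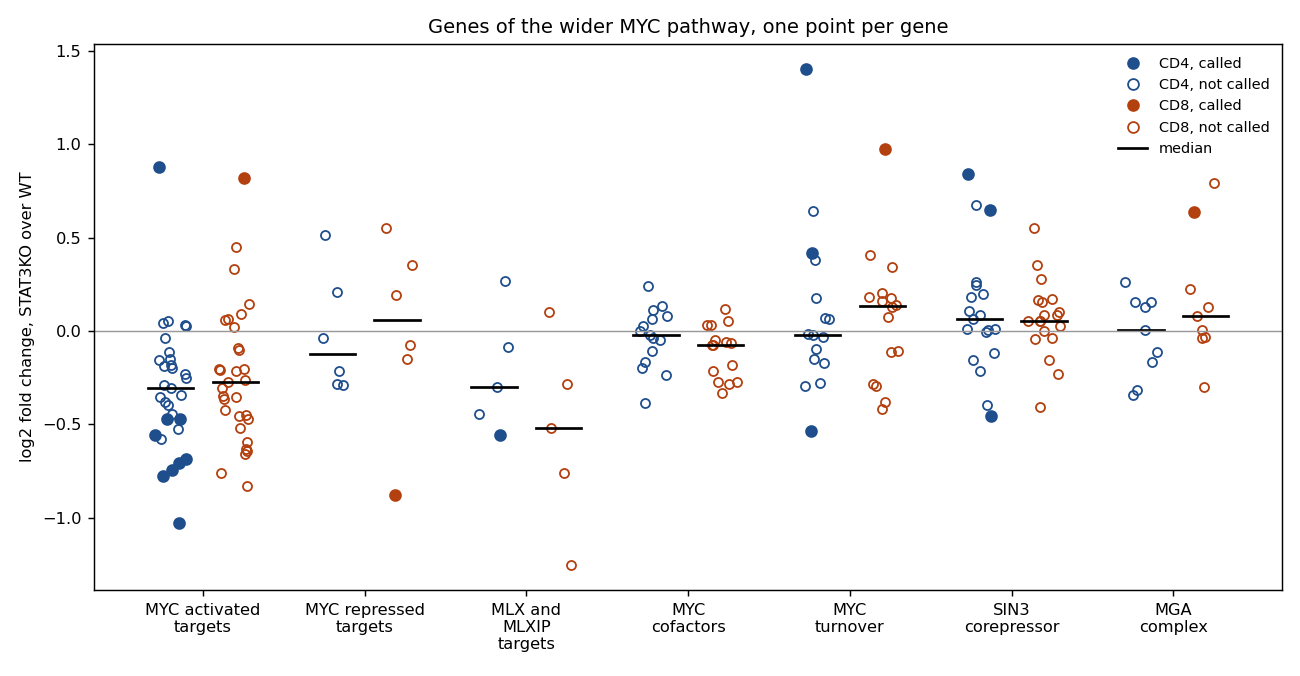
Log2 fold change of STAT3KO over WT in CD4 (blue) and CD8 (orange) T cells for each gene of 7 lists of the wider MYC pathway, with filled points for genes called by edgeR, open points for the others and a black bar at the median. The 31 MYC-activated genes have medians of -0.30 and -0.27 and 1 called gene above 0 in each cell type (Ccnd2). The medians of cofactors, turnover, SIN3 and MGA partners lie between -0.075 (cofactors in CD8) and 0.13 (turnover in CD8).

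The genes whose pattern over the 8 libraries was most like a member were found by the root mean square (RMS) difference of centred log2 CPM among 8758 genes, given as a description with no test. Nearest to Myc were Hivep3, Gadd45g, Plk2 and Sema7a, with RMS differences between 0.245 and 0.271, where the RMS of Myc around its own mean is 0.638. Hivep3 had 93.8, 42.2, 61.5, 35.8, 68.5, 41.9, 36.5 and 30.3 CPM in replicates 1 and 2 of CD4 WT, CD4 STAT3KO, CD8 WT and CD8 STAT3KO. Like Myc, it was higher in replicate 1 of each group. Nearest to Mxd3 were Cenpf, Spag5, Kif4 and Ckap2l, which encode proteins of the kinetochore and mitotic spindle (RMS differences between 0.129 and 0.143, own RMS 0.893). Cenpf had 66.0 and 53.3 CPM in CD4 WT, 152 and 156 CPM in CD4 STAT3KO, 203 and 189 CPM in CD8 WT, and 249 and 284 CPM in CD8 STAT3KO libraries. Its groups, though not all replicates within them, stood in the order of Mxd3. Nearest to Mxd4 were Gbp8, Igtp, Ccnd2 and Asb13 (RMS differences between 0.0572 and 0.150, own RMS 0.529). Gbp8 and Igtp are interferon-inducible GTPases, and Gbp8 had 47.7 and 42.2 CPM in CD4 WT, 79.6 and 76.1 CPM in CD4 STAT3KO, 27.1 and 27.2 CPM in CD8 WT, and 42.1 and 40.8 CPM in CD8 STAT3KO libraries. Thus the 2 MXD genes that rose in CD4 T cells had unlike neighbours, and their own orders over the groups differed, with Mxd3 highest in CD8 STAT3KO and Mxd4 highest in STAT3KO CD4 T cells.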

How the data were processed

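Members and gene lists were chosen with earlier results of these data known. Per the study's methods, STAR served for alignment to mm10 and HTSeq for counting over RefSeq genes, and the authors deposited raw counts and RPKM values (reads per exon length and library size), which the submitters' processing notes also place on GRCm38. The growth and treatment fields of the labels describe another cell system and were not used.

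Counts were filtered by filterByExpr (minimum count 10), scaled by TMM (factors 0.982 to 1.03) and fitted over all 8 libraries with a mean per group in edgeR 4.0.16 under R 4.3.3 (quasi-likelihood test, two-sided, adjusted p under 0.05). DESeq2 1.42.0, limma 3.58.1 on log2(RPKM + 1), other scalings, no filter, the 4 libraries compared and each library left out were alternatives. SEs were derived from the F statistic. Marker levels and sums are CPM by column total.

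Library numbers in the titles run on within a replicate number, and replicate 1 minus 2 deviations correlated between all pairs of groups (0.424 to 0.671 over 12428 genes), so the replicate number was taken to pair the samples and a fit with it as a block was the paired alternative.

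Named genes are the members, their paralogs, Stat3, up to 6 called genes per list by smallest adjusted p, and the 4 genes most like Myc, Mxd3 and Mxd4. Marker genes, genes whose exons overlap a member, and Hk2 and Arrdc4 are named besides.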

Additional observations from a re-analysis of the deposited data

How the results depend on the processing

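Of the STAT3KO calls among members, those of Mxd3 and Mxd4 in CD4 T cells stood in every alternative, and 2 members were called in CD4 T cells without any single library. In CD8 T cells, 0 members were called with column totals, 0 in the 4 CD8 libraries alone and 0 without any single library (0 to 0), and 3 with the replicate block. For the difference of the STAT3KO effects, 1 member (Mxd3) was called by DESeq2, 1 without the filter on low counts and 1 with the replicate block, and 0 to 0 without single libraries. For CD8 against CD4, 8 members were called in WT by DESeq2 and 8 with the replicate block, 5 without the filter, 5 on log2(RPKM + 1), 3 with only the 4 WT libraries and between 2 and 4 without single libraries. In STAT3KO, 5 were called by DESeq2, 6 with the replicate block and between 1 and 3 without single libraries. The pairing of the samples by replicate number changed no other call of a member than those given in the report. The sums with Mnt added gave mean MXD over Myc ratios (± SD, n = 2 each) of 2.32 ± 1.25 in CD4 WT and 5.09 ± 2.46 in CD4 STAT3KO libraries. They were 1.93 ± 0.689 in CD8 WT and 3.79 ± 1.21 in CD8 STAT3KO libraries.

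Some values changed sign, among them that of Myc. Column totals gave -0.0064 for Mlx in CD8 T cells, and log2(RPKM + 1) gave 0.0049 for the interaction of Mxi1. Without single libraries, log2 fold changes in CD4 T cells ranged from -1.48 to 0.057 for Myc, from -0.033 to 0.0998 for Mga, from -6.8e-05 to 0.15 for Mlx and from -0.037 to 0.17 for Mlxip. Interactions ranged from -0.85 to 0.69 for Myc, from -0.39 to 0.26 for Mxd1, from -0.27 to 0.23 for Mxi1, from -0.11 to 0.022 for Mlx and from -0.11 to 0.085 for Mlxip. CD8 against CD4 ranged from -0.65 to 0.70 for Myc and from -0.10 to 0.028 for Mlx in WT, and from -0.63 to 0.56 for Myc in STAT3KO T cells. No scaling moved the median of all genes by more than 0.042. The cause of these changes was not tested. When a library is left out, its group keeps a lone sample, which is then assumed to vary like the other groups. With 2 pools a group, differences in Myc of the size seen cannot be resolved unless libraries are compared within replicate numbers.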
